A study of Mus musculus with 24 samples.

Results

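Mll2-KO mouse embryonic stem cells were compared with WT cells at day 0, in the 6 of the 24 libraries of the series that hold these groups, 3 per group. The members were found by the labels of genotype and day alone. WT cells were untreated, and Mll2-KO cells, from a Cre-inducible line, had been given 800 nM 4-hydroxytamoxifen (4-OHT) for 48 h to delete Mll2, so loss of the gene and exposure to the drug cannot be told apart. All day 0 cells were kept on gelatin in 15% serum with leukaemia inhibitory factor (LIF), the cytokine that holds mouse stem cells in self-renewal. The labels do not say whether WT is the undeleted form of the same line. They also do not give the number of clones or say whether replicates were separate cultures. The p-values thus measure the spread between libraries, which may be technical. For day 0 this spread was estimated over all 12 day 0 libraries, including the Mll1-KO and double-KO libraries described below. PolyA RNA was sequenced, and each value below is a normalized count, the reads of a gene divided by a size factor of the library. The recovered read totals ran from 21.8 to 22.5 M in WT and from 19.0 to 22.8 M in Mll2-KO, with replicate 3 the deepest Mll2-KO library. Further groups are used beside them: untreated Mll1-KO cells made by CRISPR in the Cre-inducible line and double-KO cells treated like Mll2-KO, both at day 0, and WT and Mll2-KO cells after 4 days in 10% serum with 1 µM retinoic acid, 3 libraries each. The day 4 Mll2-KO cells had also been given 800 nM 4-OHT for 48 h, which is not listed for day 4 WT. Gene loss and drug thus cannot be told apart at day 4 either.

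MLL2, encoded by Kmt2b, is a histone methyltransferase of the COMPASS family. It places methyl groups on lysine 4 of histone H3 at promoters rich in CpG, among them the bivalent promoters of developmental genes in embryonic stem cells, and its CXXC domain binds unmethylated CpG. MLL1, encoded by Kmt2a, is a related enzyme.

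Of 13984 genes tested, 6596 (47.2%) were called at an adjusted p below 0.05 (limma, Benjamini-Hochberg over all genes), 3191 higher (22.8%) and 3405 lower (24.3%) in Mll2-KO. The ranges of the groups did not overlap in 7754 genes (55.4%). Most changes were small: 277 genes (1.98%) rose and 737 (5.27%) fell by at least 2-fold, and the median log2 difference over all genes was -0.00. Large falls were concentrated at low levels, since 474 of the 737 and 124 of the 277 were in the 2706 genes of mean below 50. Most tested genes of glucose use, of the hypoxia response and of the 2-cell-like state were lower, and most targets of the stress factor ATF4 and most lysosomal genes of the lists were higher. The shares for all genes given here are the background for the count of each list.

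The stem cell label was checked against its markers. Pou5f1, the pluripotency factor Oct4, had 33397, 33606 and 33167 in WT and 32388, 30004 and 29753 in Mll2-KO (log2 difference -0.12 ± 0.05 SE, adjusted p = 0.04). Nanog had 15544, 15267 and 15041 in WT and 16651, 16684 and 16150 in Mll2-KO (0.11 ± 0.04, adjusted p = 0.034). Both were among the abundant genes in every library, and the shifts were near 0.1 on the log2 scale. Markers of other lineages were mixed. Elf5 (trophoblast), Afp (endoderm), Dcx (neurons), Postn and S100a4 (fibroblasts) had 0 reads in all 6 libraries. Of the fibroblast markers 8 of 19 stayed below 10 in all 6 libraries, of the neural markers 6 of 24 and of the trophectoderm markers 2 of 15. Others in these lists were well expressed: Fn1 (fibroblast list) had 14159 to 15144 in WT and 18872 to 21567 in Mll2-KO, Stmn2 (neural) had 4630 to 4852 and 4430 to 4637, and Peg10 (trophectoderm) had 8120 to 9040 and 3967 to 5397. What part cells of other types have in the results was not tested. The endoderm list held expressed genes too, with Gata4 at 744 to 881 in WT and 824 to 953 in Mll2-KO, and its summed level was 68213 to 72006 in WT and 85193 to 92003 in Mll2-KO, in which Apoe alone is 11816 to 12596 and 23433 to 26833.

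The targeted gene could not be checked by its total. Kmt2b had 2854, 2900 and 2803 in WT and 2380, 2442 and 2798 in Mll2-KO (-0.17 ± 0.06, adjusted p = 0.033), and the groups did not overlap, though Mll2-KO replicate 3 lay just under the lowest WT library. A count over the whole gene cannot show the loss of single exons, and the call was lost in 7 of the alternative analyses. Kmt2a had 1097, 1047 and 1121 in WT and 1300, 1370 and 1473 in Mll2-KO (0.34 ± 0.20, adjusted p = 0.17). The groups did not overlap, and this SE came from all 12 day 0 libraries, Mll1-KO and double-KO included. In the limma fit over the 6 libraries alone the adjusted p was 0.00074. Magohb, which encodes an exon junction protein, had 175, 199 and 200 in WT and 44.8, 45.9 and 32 in Mll2-KO (-2.21 ± 0.17, adjusted p = 2.6e-09), with every Mll2-KO library below every WT library. Of the 20 COMPASS family genes, 7 rose and 4 fell, none by 2-fold. Among them Setd1b, another H3K4 methyltransferase gene, rose (559, 573 and 490 against 754, 692 and 890, 0.52 ± 0.08), and the core subunit genes Dpy30 (-0.41 ± 0.05) and Wdr5 (-0.34 ± 0.05) fell.

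**Figure D1:**
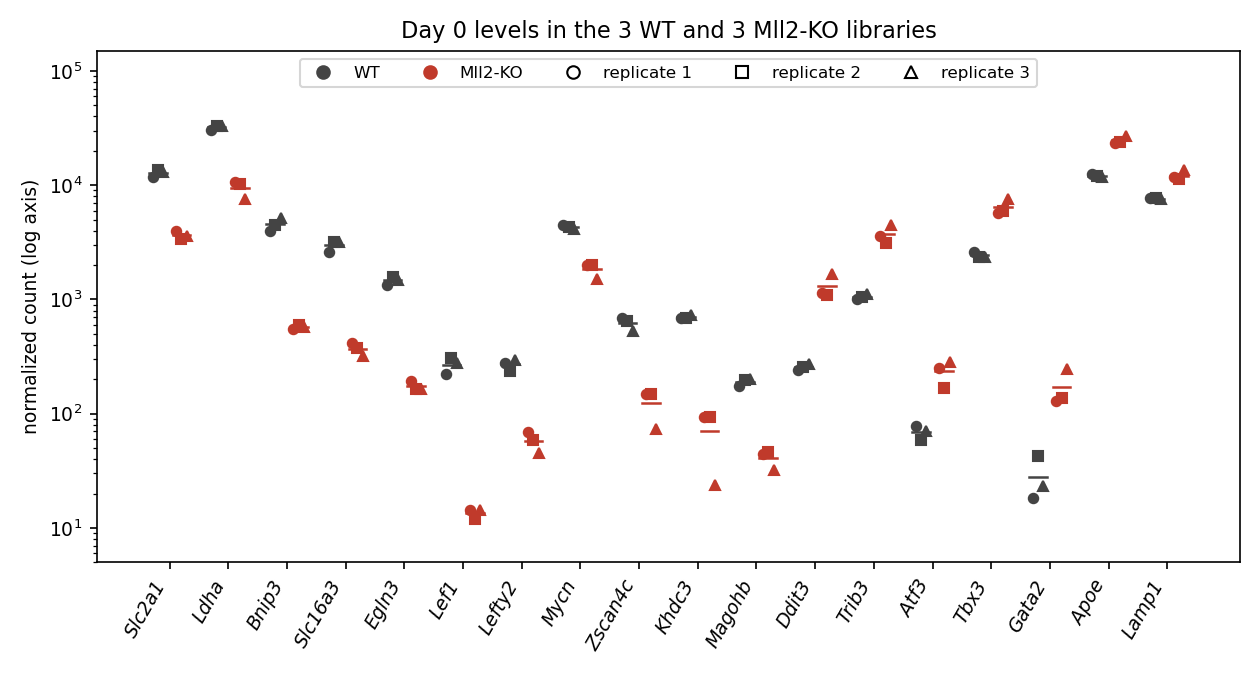
Normalized counts (log axis) of 18 genes named in the text in each of the 3 WT libraries (grey) and 3 Mll2-KO libraries (red) at day 0. Marker shapes give the replicate number and bars the group means. Glucose, hypoxia, Wnt, Nodal and 2-cell-like genes lie lower in Mll2-KO, stress and lysosomal genes higher, and replicate 3 (triangles) is often the Mll2-KO library farthest from WT, as for Khdc3 at 23.6.

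The genes with the largest changes were of mixed kinds. Among abundant genes Anxa2, a calcium-dependent membrane-binding protein that is also in the list of HIF targets below, had 1187, 1399 and 1476 in WT and 318, 287 and 337 in Mll2-KO (-2.10 ± 0.10, adjusted p = 1.7e-12). Pgm1, phosphoglucomutase, which links glycogen to glycolysis, had 1860, 2493 and 2552 in WT and 576, 600 and 448 in Mll2-KO (-2.08 ± 0.11, adjusted p = 7.3e-12). A2m, a protease inhibitor of plasma, had 323, 513 and 487 in WT and 7.16, 11.3 and 13 in Mll2-KO (-5.27 ± 0.31, adjusted p = 4.4e-11). In these genes every Mll2-KO library lay below every WT library. Grin1, a subunit of the NMDA glutamate receptor, had 116, 212 and 197 in WT and 15.2, 11.3 and 3.05 in Mll2-KO (-4.19 ± 0.45, adjusted p = 3e-07). Of the rises Neat1, the long noncoding RNA of paraspeckles, had 729, 729 and 792 in WT and 2051, 2188 and 2472 in Mll2-KO (1.57 ± 0.09, adjusted p = 1.8e-11). Arhgef2, a microtubule-associated exchange factor, had 1188, 1147 and 1177 in WT and 2859, 3026 and 4624 in Mll2-KO (1.55 ± 0.11, adjusted p = 6.3e-10). Aqp3, a channel for water and glycerol, had 466, 427 and 443 in WT and 1200, 1250 and 2074 in Mll2-KO (1.71 ± 0.13, adjusted p = 2.9e-09). The rises were separate from WT in all libraries, and for Arhgef2 and Aqp3 Mll2-KO replicate 3 was well above the other libraries of its group.

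Genes of the hypoxia response and of glycolysis fell. Hypoxia-inducible factors (HIF) are transcription factors that are degraded when oxygen is plentiful, after hydroxylation by the EGLN enzymes, and that otherwise bind a short core sequence and switch on glucose transport, glycolysis, lactate export and mitophagy genes. Of 30 HIF target genes tested, 25 fell and 1 rose, 18 of them by at least 2-fold, with a median log2 difference of -1.21. Their summed level fell from 36706 to 42377 in the WT libraries to 16572 to 18676 in the Mll2-KO libraries. In bulk RNA, fewer cells expressing a gene and less RNA per cell cannot be told apart, here and for every gene below.

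The members act at successive steps. Slc2a1, the glucose importer GLUT1, had 11890, 13525 and 13113 in WT and 3989, 3387 and 3583 in Mll2-KO (-1.81 ± 0.06, adjusted p = 6.6e-15). Ldha, which makes lactate from pyruvate, had 30105, 32861 and 33163 in WT and 10631, 10220 and 7638 in Mll2-KO (-1.77 ± 0.08, adjusted p = 2.2e-12). Slc16a3, the lactate exporter MCT4, had 2618, 3157 and 3151 in WT and 420, 376 and 319 in Mll2-KO (-3.00 ± 0.09, adjusted p = 1.8e-15). These 3 genes were lower in all 3 Mll2-KO libraries, with no overlap of the groups, whereas Slc2a3, another glucose importer gene, was higher (values below). Bnip3, a mitophagy receptor, had 4001, 4488 and 5157 in WT and 550, 600 and 579 in Mll2-KO (-2.97 ± 0.07, adjusted p = 1.8e-17). The 3 Mll2-KO libraries lay close together and far below WT. Stc1, a secreted hormone gene, had 41.3, 67.6 and 60.6 in WT and no reads in Mll2-KO, which made it at least 22.9-fold lower against a floor of 3 counts per library. Ndufa4l2, a mitochondrial HIF target, had 368, 504 and 610 in WT and 34, 45.9 and 43.5 in Mll2-KO (-3.53 ± 0.20).

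Of 21 glycolysis genes, 17 fell and 2 rose, with a median of -0.78, and their summed level went from 425198 to 456817 in WT to 278073 to 286381 in Mll2-KO. Tpi1, triose phosphate isomerase, had 11027, 12293 and 12678 in WT and 3933, 4061 and 3404 in Mll2-KO (-1.66 ± 0.06, adjusted p = 2.2e-14). Pgk1, phosphoglycerate kinase, had 16761, 18925 and 20176 in WT and 7691, 7520 and 7882 in Mll2-KO (-1.27 ± 0.05, adjusted p = 2.9e-13). Gapdh, often used as a reference gene, fell less, from 103378, 106642 and 106464 to 88522, 85526 and 87246 (-0.28 ± 0.04, adjusted p = 4.2e-05). The exceptions were Slc2a3, the glucose importer GLUT3, with 25624, 26689 and 27317 in WT and 30176, 29692 and 35082 in Mll2-KO (0.25 ± 0.05, adjusted p = 0.00061), and Eno2, the neuronal enolase, with 88.8, 65.3 and 75.3 in WT and 199, 222 and 284 in Mll2-KO (1.60 ± 0.19, adjusted p = 9.4e-07). Vegfa, the angiogenic growth factor and a HIF target, also rose (1458, 1558 and 1593 against 2154, 2004 and 2353, 0.50 ± 0.06, adjusted p = 1.1e-06).

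The genes of the HIF machinery itself did not fall as a group: of 13, 4 rose and 4 fell, with a median of -0.02 (2 higher without Mll2-KO replicate 1). Hif1a, the oxygen-regulated subunit, had 2209, 2105 and 2258 in WT and 3190, 2988 and 3412 in Mll2-KO (0.54 ± 0.05, adjusted p = 9.4e-08). Its partner Arnt had 1960, 1926 and 1888 in WT and 2551, 2555 and 2961 in Mll2-KO (0.48 ± 0.05, adjusted p = 6.2e-07). The subunit messages were thus higher in the same libraries in which the targets were lower. The hydroxylase genes Egln1 (1493, 1709 and 1844 in WT, 394, 342 and 337 in Mll2-KO, -2.23 ± 0.08) and Egln3 (1336, 1567 and 1493 in WT, 194, 165 and 163 in Mll2-KO, -3.07 ± 0.11), which are themselves HIF targets, fell. Arnt2 also fell, from 94.9, 87.3 and 66.8 to 29.5, 37.1 and 38.9 (-1.21 ± 0.22).

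The core of the hypoxia response element was sought in RefSeq promoter windows (build GRCm38.p6, 250 bases before to 50 after each start) as ACGTG or GCGTG on either strand. It is short and frequent: 61.3% of all windows held it, against 84.8% of the windows of the HIF targets (28 windows, with 24 of the 30 genes matched) and 75% of those of the glycolysis genes (24 windows). Of other lists, meiosis and piRNA genes had 78.4% and ATF4 targets 75%. Cholesterol synthesis genes had 56%, Wnt effectors and targets 53.1% and 2-cell-like genes 50%. Of the windows of all genes that fell by at least 2-fold, 55.7% held it. Both cores contain a CpG, and the HIF targets had a median of 26 CpG per window, against 20.5 for all genes. A match is a description of the letters and not a site of binding. Stretches upstream of the start are shown for 4 of the genes with the values above, since each holds more than 1 core, with the cores in capitals on both strands (CACGTG is an overlap of a core on each strand):
Slc16a3 (chr11:120949000-120949066, plus strand): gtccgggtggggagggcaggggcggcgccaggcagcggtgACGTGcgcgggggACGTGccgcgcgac
Bnip3 (chr7:138909579-138909663, minus strand): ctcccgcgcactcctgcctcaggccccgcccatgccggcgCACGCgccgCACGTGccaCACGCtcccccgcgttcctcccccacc
Ldha (chr7:46845619-46845703, plus strand): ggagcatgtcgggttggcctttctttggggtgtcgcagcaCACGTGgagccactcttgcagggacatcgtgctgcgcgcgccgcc
Pgk1 (chrX:106186910-106186994, plus strand): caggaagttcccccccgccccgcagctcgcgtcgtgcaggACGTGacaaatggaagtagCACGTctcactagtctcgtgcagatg

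The other mutants put these genes in a wider frame. WT had the highest mean of the 4 day 0 genotypes for 26 of the 30 HIF targets and for 18 of the 21 glycolysis genes. Mll2-KO was the lowest for 11 and 14 of them, Mll1-KO for 10 and 5, and the double-KO for 9 and 2. Slc16a3 averaged 2975 ± 309 (SD, n = 3) in WT, 983 ± 91.5 in Mll1-KO, 372 ± 50.7 in Mll2-KO and 804 ± 23.2 in the double-KO. The double-KO, which lacks both enzymes, thus had a higher mean than Mll2-KO. All 3 mutants are set against the same WT libraries, so their falls are not independent of each other. The comparison of the double-KO with Mll1-KO takes its log2 differences from neither the WT nor the Mll2-KO libraries. Its calls rest on the spread over all 12 day 0 libraries, WT and Mll2-KO included. It gave 14 HIF targets lower and 7 higher, with a median of -0.20, beside 22% lower and 18.9% higher of all genes (41% called). The difference between the effects of Mll2 loss without and with MLL1 was called for 20 of the 30 HIF targets and 16 of the 21 glycolysis genes, against 9.13% of all genes. For Bnip3 that difference was 2.55 ± 0.10 (adjusted p = 4.4e-13).

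**Figure D2:**
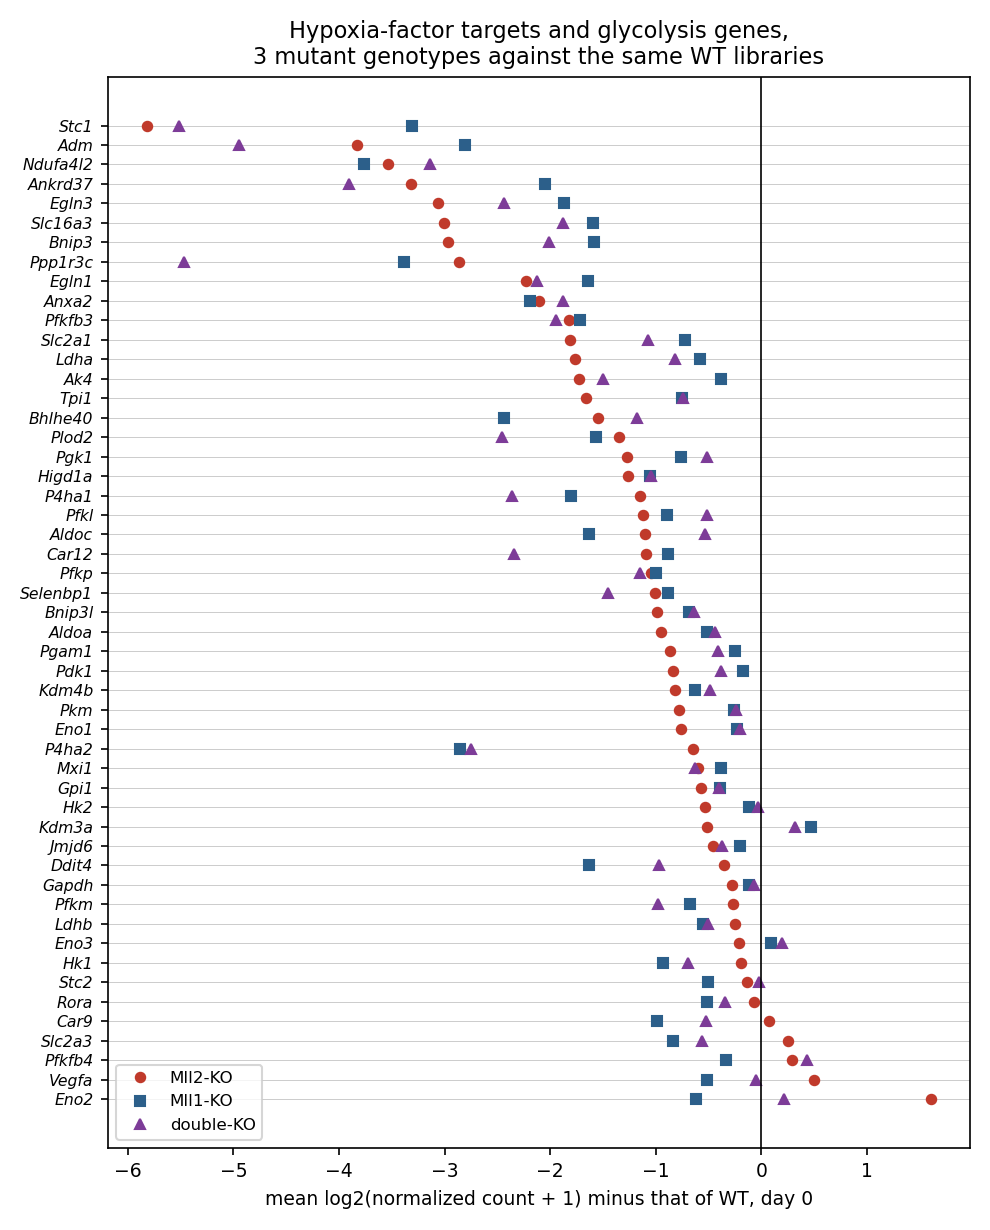
Difference in mean log2(normalized count + 1) from the day 0 WT libraries for HIF target and glycolysis genes (rows) in Mll2-KO (red circles), Mll1-KO (blue squares) and double-KO (purple triangles), 3 libraries each. Most points lie left of 0 in all 3 mutants, which share the same WT libraries, and Eno2, Vegfa, Slc2a3, Pfkfb4 and Car9 lie right of it in Mll2-KO.

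Targets of ATF4 rose together. ATF4 is the transcription factor of the integrated stress response: kinases that sense amino acid shortage, unfolded protein in the endoplasmic reticulum (ER), haem deficiency or viral RNA phosphorylate the translation factor eIF2α, which slows protein synthesis but favours translation of Atf4, and ATF4 then induces amino acid transport and synthesis, tRNA charging and the factor CHOP (Ddit3). Of 36 genes tested in the list of ATF4 targets, which also holds Atf4, 34 rose and 1 fell, 15 of the rises by at least 2-fold, with a median of 0.80. Their summed level went from 85054.5 to 86535 in WT to 122666 to 142169 in Mll2-KO. Ddit4l, a regulator of growth signalling, was the target that fell (243, 290 and 319 against 241, 208 and 228, -0.33 ± 0.11, adjusted p = 0.022), and Fgf21 at low counts was not called (1.04 ± 0.58).

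Atf4 itself had 5625, 5480 and 5958 in WT and 11260, 10877 and 13205 in Mll2-KO (1.05 ± 0.06, adjusted p = 2.1e-11). Ddit3 had 241, 256 and 273 in WT and 1143, 1097 and 1681 in Mll2-KO (2.32 ± 0.12, adjusted p = 7.3e-12). Trib3, a pseudokinase that is induced by both factors, had 1018, 1041 and 1109 in WT and 3560, 3141 and 4441 in Mll2-KO (1.80 ± 0.08, adjusted p = 1.7e-12). Every Mll2-KO library lay above every WT library, and replicate 3 was the highest in all 3 genes. Chac1, which degrades glutathione, had 433, 411 and 443 in WT and 1137, 997 and 1255 in Mll2-KO (1.39 ± 0.08, adjusted p = 3.8e-11). Asns, asparagine synthetase, was abundant and rose less, from 11391, 11338 and 11275 to 14277, 14451 and 15137 (0.37 ± 0.04, adjusted p = 6.4e-07). Gdf15, a secreted stress cytokine, had 130, 101 and 113 in WT and 335, 322 and 435 in Mll2-KO (1.65 ± 0.19).

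Genes around this response moved less. Of 20 cytosolic aminoacyl tRNA synthetase genes tested, 14 rose and 1 fell (Dars, -0.18 ± 0.04), with a median of 0.30; Nars (0.59 ± 0.06), Wars (0.59 ± 0.08) and Aars (0.57 ± 0.05) rose most. A list of 8 genes held eIF2α, its kinases, a phosphatase subunit and the mitochondrial stress relay genes Dele1 and Oma1, and 3 rose and 1 fell. Dele1 rose most (1044, 999 and 978 against 1203, 1389 and 1470, 0.42 ± 0.07, adjusted p = 3.4e-05). Among the kinase genes only Eif2ak4 was called (0.21). The ER arm was split, with 7 of 21 genes higher and 10 lower (6 lower without WT replicate 1). The main ER chaperone gene Hspa5 (BiP) had 15943, 15162 and 14529 in WT and 10194, 9829 and 11865 in Mll2-KO (-0.52 ± 0.06, adjusted p = 7.2e-07), and Hsp90b1 fell by 0.49 ± 0.05. By contrast Herpud1, an ER degradation factor, had 357, 369 and 401 in WT and 763, 683 and 859 in Mll2-KO (1.03 ± 0.08, adjusted p = 5.5e-09). The chaperone messages Hspa5 and Hsp90b1 were thus lower in the same libraries in which ATF4 targets were higher.

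The 8-letter element shared by ATF4 and C/EBP proteins was sought as TTGCATCA or its complement TGATGCAA. It is rare, in 0.633% of all promoter windows (89 of 14061), and was in 22.5% of the windows of the ATF4 targets (9 of 40, from 31 matched genes). Of the 84 tested genes with the element in a window, 38 (45.2%) were higher and 14 (16.7%) lower in Mll2-KO, with a median of 0.22, against 22.7% and 24.4% of the 10972 genes without it. After the ATF4 list was taken out, 30 of 75 (40%) were higher and 14 (18.7%) lower. The 75 still held the tRNA synthetase genes Aars, Iars, Tars and Yars, so they were not free of genes tied to ATF4. RefSeq windows were matched for 79.1% of the genes tested. The stretches below were chosen as those of genes that rose and hold the element upstream of the start, among them Slc7a11, the cystine importer, which holds it in both orientations, with the element in capitals:
Chac1 (chr2:119351009-119351096, plus strand): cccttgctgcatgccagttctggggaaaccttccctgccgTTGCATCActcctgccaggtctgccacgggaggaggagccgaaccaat
Jdp2 (chr12:85599343-85599415, plus strand): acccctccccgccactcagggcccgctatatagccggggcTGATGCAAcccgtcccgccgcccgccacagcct
Nupr1 (chr7:126625533-126625620, minus strand): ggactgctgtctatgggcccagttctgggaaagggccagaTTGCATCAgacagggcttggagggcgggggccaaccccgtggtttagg
Atf3 (chr1:191183396-191183483, minus strand): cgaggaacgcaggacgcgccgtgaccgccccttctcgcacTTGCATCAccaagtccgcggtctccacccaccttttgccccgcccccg
Slc7a11 (chr3:50443632-50443719, minus strand): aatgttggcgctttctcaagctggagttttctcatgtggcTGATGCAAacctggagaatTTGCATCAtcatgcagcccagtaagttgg
Herpud1 (chr8:94386277-94386364, plus strand): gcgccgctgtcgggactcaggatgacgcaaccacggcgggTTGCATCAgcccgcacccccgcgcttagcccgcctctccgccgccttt

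Of these genes Jdp2, a stress-related leucine zipper factor, had 156, 177 and 199 in WT and 525, 563 and 661 in Mll2-KO (1.71 ± 0.10). Nupr1, a stress-induced chromatin protein, had 763, 777 and 776 in WT and 1706, 1843 and 2382 in Mll2-KO (adjusted p = 2.7e-10). Atf3, a repressor of the same family, had 77.3, 58.5 and 70.7 in WT and 251, 169 and 283 in Mll2-KO (1.73 ± 0.17). In Slc7a11, at 17.6, 21.3 and 14.8 in WT and 27.7, 30.6 and 61 in Mll2-KO (1.04 ± 0.28, adjusted p = 0.0044), replicate 3 was well above the other Mll2-KO libraries.

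Lysosomal genes rose as well. In the list of cathepsins, cystatins, lysosomal membrane proteins and the transcription factor gene Tfeb, 10 of 13 tested rose and 1 fell, with a median of 0.39. The summed level went from 28829 to 29134 in WT to 39865 to 45437 in Mll2-KO. Lamp1, a major membrane glycoprotein of lysosomes, had 7659, 7698 and 7553 in WT and 11697, 11296 and 13443 in Mll2-KO (0.67 ± 0.05, adjusted p = 2.9e-09). Ctsd, the protease cathepsin D, had 5808, 5861 and 5904 in WT and 8706, 8586 and 10243 in Mll2-KO (0.64 ± 0.05, adjusted p = 8.8e-09). Cst3, a cathepsin inhibitor, was the member that fell (-0.35 ± 0.07). Hexa, a lysosomal enzyme outside the list, was higher too (1653, 1636 and 1632 against 3483, 3458 and 4387, 1.19 ± 0.07), as was Apoe, a lipid carrier (12596, 11992 and 11816 against 23433, 23814 and 26833, 1.02 ± 0.05, adjusted p = 5.7e-12).

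**Figure D3:**
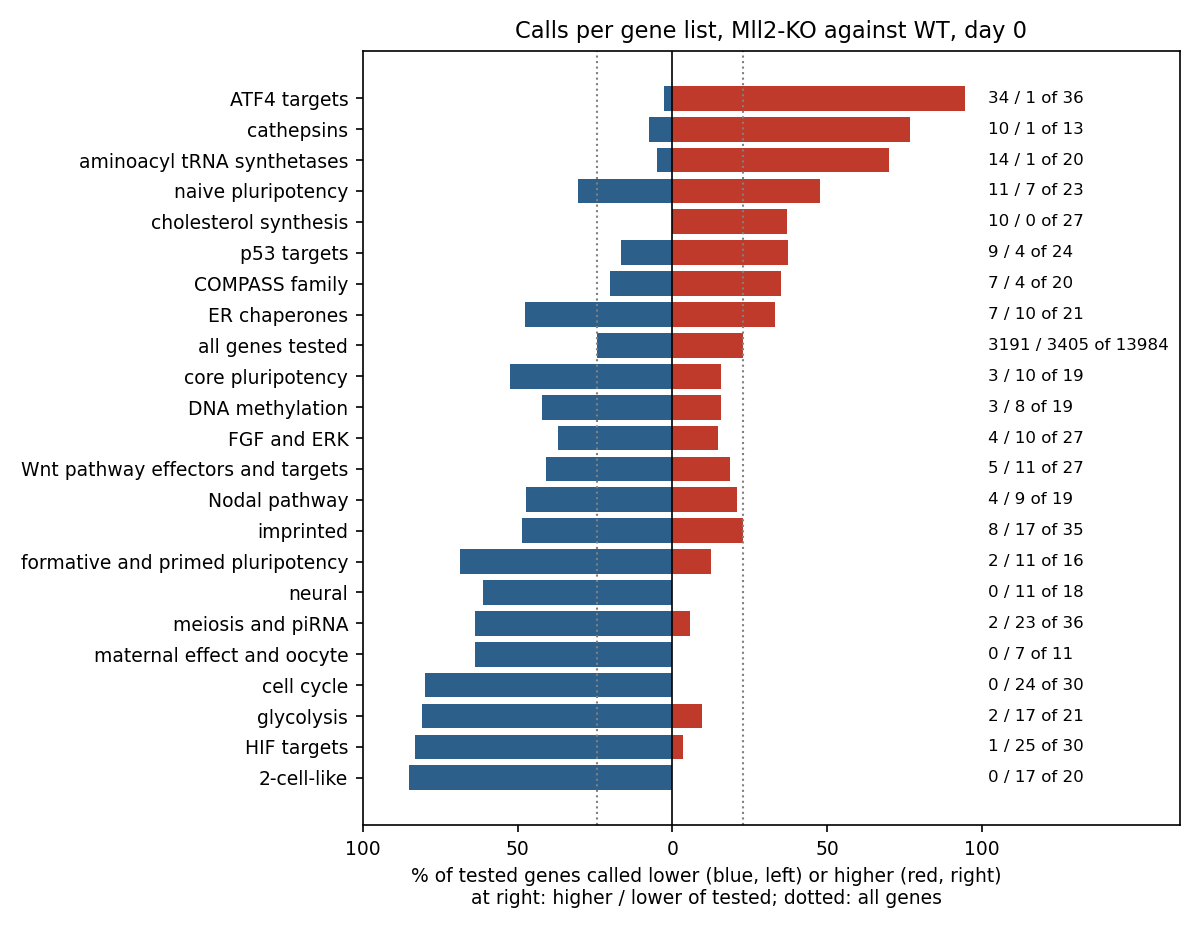
Percentage of the tested genes of each list called lower (blue, left) or higher (red, right) in Mll2-KO against WT at day 0, with the counts at the right. Dotted lines give the shares over all genes, 24.3% lower and 22.8% higher, and ATF4 targets (34 of 36 higher) and 2-cell-like genes (17 of 20 lower) lie at the ends.

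Pluripotency genes moved in both directions. The naive state is a pluripotent state of mouse stem cells that LIF helps to hold, and the formative and primed states follow as cells prepare for lineage choice. Of 23 naive genes, 11 rose and 7 fell, with a median of 0.07, and of 19 core genes 3 rose and 10 fell, with a median of -0.12. Of 16 formative and primed genes tested, 11 fell and 2 rose, with a median of -0.46. Among naive factors Tbx3 had 2580, 2367 and 2340 in WT and 5677, 5986 and 7537 in Mll2-KO (1.39 ± 0.08, adjusted p = 3.8e-11). Klf4 had 5726, 5733 and 5741 in WT and 9224, 9400 and 9231 in Mll2-KO (0.70 ± 0.04, adjusted p = 8.9e-11), far apart beside the spread within each group. Esrrb rose from 12067, 12706 and 11842 to 17712, 18230 and 23120 (0.68 ± 0.07). Gbx2, also counted as naive, fell from 1157, 1031 and 881 to 530, 465 and 472 (-1.06 ± 0.09, adjusted p = 7.4e-09).

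Of the core factors Mycn had 4473, 4313 and 4162 in WT and 1994, 1989 and 1524 in Mll2-KO (-1.24 ± 0.07, adjusted p = 4.4e-11). L1td1, an RNA-binding protein derived from a LINE-1 element, had 7706, 7507 and 6856 in WT and 4091, 4049 and 3488 in Mll2-KO (-0.93 ± 0.06, adjusted p = 9e-11), and the RNA-binding factor Lin28b fell by 0.93 ± 0.10. All 3 were lower in every Mll2-KO library. Of the formative and primed factors Otx2 had 61.3, 56.2 and 83.1 in WT and 9.85, 14.5 and 6.1 in Mll2-KO (-2.66 ± 0.41, adjusted p = 2.3e-05), and Sox3 had 114, 135 and 122 in WT and 28.6, 23.4 and 18.3 in Mll2-KO (-2.37 ± 0.22). The de novo methyltransferase genes fell too: Dnmt3a had 5958, 5467 and 5088 in WT and 3777, 3457 and 2629 in Mll2-KO (-0.76 ± 0.09, adjusted p = 5.7e-07), Dnmt3l fell by 0.63 ± 0.08 and Dnmt3b by 0.42 ± 0.06. Over the 19 DNA methylation genes 8 fell and 3 rose, the rises in Tet3 (0.78 ± 0.13), Tet2 (0.44 ± 0.06) and Zfp57 (0.20 ± 0.05). Without WT replicate 2, and likewise without Mll2-KO replicate 2, 5 of them fell.

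Lists of signalling pathways that act on these states had counts near or moderately off those of all genes (22.8% higher, 24.3% lower), with large changes in single genes. In the Wnt pathway, in which secreted ligands stabilise β-catenin and TCF/LEF factors switch on targets, 11 of 27 effectors and targets fell and 5 rose, and 7 of 26 ligands and receptors fell and 3 rose. Lef1, a TCF/LEF factor, had 221, 305 and 277 in WT and 14.3, 12.1 and 14.5 in Mll2-KO (-4.19 ± 0.16, adjusted p = 6e-14). It was present at 336 in Mll1-KO (mean) and 144 in the double-KO, so the fall on loss of Mll2 was smaller without MLL1 than with it (difference of the log2 effects 2.96, adjusted p = 1.6e-08). Wnt5a, a ligand, had 67.4, 34.9 and 48.1 in WT and 14.3, 12.1 and 6.1 in Mll2-KO (-2.14 ± 0.32), and the secreted antagonist Sfrp2 fell from 132, 112 and 144 to 34, 41.1 and 30.5 (-1.85 ± 0.18). The inhibitor Apc2 rose (16.1, 19.7 and 18.6 against 105, 83.8 and 74.7, 2.20 ± 0.27), as did the corepressor Tle3 (0.83 ± 0.08).

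In the Nodal pathway 9 of 19 genes fell and 4 rose. Lefty2, a Nodal antagonist and target, had 277, 235 and 296 in WT and 69.8, 58.8 and 45.8 in Mll2-KO (-2.21 ± 0.16, adjusted p = 1.1e-09). Lefty1 had 445, 500 and 574 in WT and 255, 177 and 207 in Mll2-KO (-1.25 ± 0.12), and the co-receptor Tdgf1 had 32565, 33865 and 33638 in WT and 19161, 19499 and 19001 in Mll2-KO (-0.80 ± 0.04, adjusted p = 2.1e-11). The pathway's nuclear factor Foxh1 rose (475, 506 and 481 against 757, 790 and 961, 0.77 ± 0.09). In the FGF and ERK list 10 of 27 fell and 4 rose: the immediate early genes Ier3 (299, 468 and 431 against 30.4, 34.7 and 51.1, -3.34 ± 0.19) and Egr1 (299, 284 and 201 against 74.3, 79 and 63.3, -1.83 ± 0.13) fell, and the feedback inhibitor Spry2 rose (0.63 ± 0.07). Of 30 cell cycle genes 24 fell and none rose, with a median of -0.30. The fall was largest for the cyclin genes Ccne2 (616, 516 and 516 against 208, 163 and 143, -1.69 ± 0.11) and Ccne1 (-0.87 ± 0.07), and 6 genes, among them Mcm2 (0.03) and Cdt1 (0.02), were not called.

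Genes of the 2-cell-like state and of the germline fell. The 2-cell-like state is a rare, transient condition of cultured stem cells that share transcripts with the 2-cell embryo, such as the Zscan4 cluster and the factor Dux. Of 20 such genes tested 17 fell and none rose, 16 by at least 2-fold, with a median of -1.83, and Gm4340, Sp110 and Zfp37 were not called. Zscan4c had 686, 646 and 525 in WT and 149, 149 and 74 in Mll2-KO (-2.37 ± 0.21, adjusted p = 1.8e-08). Zscan4f had 1001, 876 and 871 in WT and 208, 216 and 115 in Mll2-KO (-2.39 ± 0.21). Dux, which activates the programme, had 27.6, 30.4 and 23.3 in WT and 2.69, 0 and 1.53 in Mll2-KO (-3.73 ± 0.60). In both Zscan4 genes Mll2-KO replicate 3 was the lowest library. The summed level of the list, 6932 to 7546 in WT and 3876 to 4354 in Mll2-KO, consists largely of Eif1a (3919 to 4015 and 2956 to 3334). Copies of Zscan4 and Usp17l are near-identical, how reads were divided among them is not given in the sources used here, and the values of single copies are uncertain.

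Of 36 genes of meiosis and the piRNA pathway 23 fell and 2 rose, with a median of -0.41, and of 11 maternal effect and oocyte genes tested 7 fell and none rose, with a median of -0.50. Khdc3, part of the subcortical maternal complex of oocytes, had 685, 693 and 733 in WT and 94, 93.5 and 23.6 in Mll2-KO (-3.54 ± 0.31, adjusted p = 1.9e-08). Sycp1, a structural protein of the synaptonemal complex, had 314, 238 and 203 in WT and 51.9, 50.8 and 35.1 in Mll2-KO (-2.43 ± 0.20). Dazl, a germ cell RNA-binding protein, had 615, 638 and 669 in WT and 252, 243 and 255 in Mll2-KO (-1.35 ± 0.10, adjusted p = 8.8e-10). The exceptions that rose were Tex14 (1149, 1096 and 1106 against 1242, 1372 and 1531, 0.30 ± 0.08) and Stra8, a meiotic entry factor (305, 343 and 333 against 372, 435 and 389, 0.29 ± 0.08, adjusted p = 0.0086). Of 35 imprinted genes, which are expressed from 1 parental copy, 17 fell and 8 rose, with Nnat (-1.87 ± 0.19) and Ndn (-1.73 ± 0.18) among the falls and Slc22a18 (1.18 ± 0.15) and Impact (1.05 ± 0.09) among the rises.

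Lists of lineage genes were called in both directions, apart from the neural list. Of 32 endoderm genes tested 7 rose and 4 fell, of 16 mesoderm genes 4 and 2, of 13 trophectoderm genes 3 and 5, and of 11 fibroblast genes 3 and 2, whereas of 18 neural genes 11 fell and none rose (1 rose without Mll2-KO replicate 3). These small counts moved with single libraries: 2 mesoderm genes rose without WT replicate 1 or 3 or any one Mll2-KO library, 1 trophectoderm gene without WT replicate 3 or Mll2-KO replicate 1 or 3, and 1 fibroblast gene without WT replicate 3. Among the neural genes that fell Nnat had 81.2, 79.7 and 101 in WT and 25.1, 17.7 and 27.5 in Mll2-KO, and the filament gene Ina had 479, 433 and 457 in WT and 173, 170 and 184 in Mll2-KO (-1.37 ± 0.07, adjusted p = 1.7e-11). Gata2, a factor of blood and trophoblast, had 18.4, 42.5 and 23.3 in WT and 130, 138 and 246 in Mll2-KO (2.59 ± 0.29, adjusted p = 4e-07). Eomes, a mesendoderm factor, fell from 293, 294 and 299 to 106, 114 and 74 (-1.61 ± 0.16). Krt19, an epithelial keratin, fell from 136, 154 and 183 to 16.1, 38.7 and 40.4 (-2.37 ± 0.27).

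How far Mll2-KO replicate 3 stood from replicates 1 and 2 was measured in the 11173 genes that averaged 50 or more in that group. It differed by at least 2-fold from the mean of the other libraries of its group in 37 genes, 15 higher and 22 lower, against 17 genes for replicate 1 and 8 for replicate 2, and 10 to 14 for the WT libraries. At 1.5-fold it differed in 310 genes, against 112 and 122, and 54 to 89 in WT. Over all genes tested the median absolute log2 difference was 0.161 and 0.159 between replicate 3 and replicates 1 and 2, and 0.110 between replicates 1 and 2, while WT pairs had 0.098 to 0.111. Replicate 3 was thus the most distant of the 6 libraries from its own group, by a margin that is small beside the difference from WT (medians 0.237 to 0.326).

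Part of the distance lay along the difference from WT. On the first principal component of the 6 libraries (64.1% of the variance) replicates 1 and 2 scored -29.5 and -31.0 and replicate 3 scored -46.5, against 34.2 to 37.5 for WT. On the second component (10.7%) the Mll2-KO libraries scored -26.4, -3.13 and 23.6, so they also differed among themselves in another direction. Genes that differed by 2-fold or more from single WT libraries numbered 1227 to 1337 for replicates 1 and 2 and 1681 to 1787 for replicate 3. The next reading was added after the data were seen. In the fit without replicate 3, 212 genes rose and 622 fell by at least 2-fold, so that replicate 3 could be read, against the same WT libraries, in genes chosen without it: 211 of the 212 and 620 of the 622 had the same direction in it, and the median size was 1.48 for the rises, against 1.31 in replicates 1 and 2, and 1.69 for the falls, against 1.60. Replicate 3 was the farthest from WT in 52.4% of those rises and 41.6% of those falls. The same reading of replicate 1 gave 7.82% and 14.4%, and of replicate 2 9.32% and 15.4%. The genes for these readings were chosen with replicate 3 in the pair kept, so their shares are not like for like with those of replicate 3.

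The gene groups differed in this. The median of the 2-cell-like list against the WT mean was -1.45, -1.50 and -2.40 in replicates 1, 2 and 3, that of the ATF4 targets 0.65, 0.62 and 1.06, and that of the formative and primed list -0.34, -0.43 and -0.66. HIF targets did not show it (-1.21, -1.39 and -1.13), nor did glycolysis (-0.73, -0.79 and -0.81) or naive genes (0.05, 0.05 and 0.08). Without replicate 3, 25 of 30 HIF targets and 15 of 21 glycolysis genes were lower, 32 of 36 ATF4 targets higher and 15 of 20 2-cell-like genes lower.

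Cholesterol synthesis was the list that turned on replicate 3. These genes are controlled by the sterol-sensing factor SREBP2 and rise together when cells lack sterol. In all 27 genes tested replicate 3 was the highest Mll2-KO library and lay above all 3 WT libraries, by 0.05 to 1.11 on the log2 scale above the mean of replicates 1 and 2. The list medians against WT were 0.11, -0.06 and 0.65, and the summed level ran from 30423 to 50185 in Mll2-KO beside 30675 to 32791 in WT. Insig1, the sterol-sensing retention factor, had 1484, 1659 and 1798 in WT and 991, 948 and 2097 in Mll2-KO (-0.39 ± 0.18, adjusted p = 0.076), with replicates 1 and 2 below and replicate 3 above WT. Cyp51, a demethylase of the pathway, had 1120, 1089 and 1249 in WT and 1335, 1167 and 2639 in Mll2-KO (0.48 ± 0.18, adjusted p = 0.032). With all libraries 10 of the 27 rose and none fell, and without replicate 3 7 rose and 8 fell, among them Insig1 (-0.76, adjusted p = 3.2e-09) and Stard4 (-0.56). Mvk (252, 275 and 301 against 392, 389 and 432) and Tm7sf2 (136, 156 and 171 against 317, 265 and 420) rose either way. The other Mll2-null comparison, double-KO against Mll1-KO, gave 24 of the 27 genes higher and none lower, with a median of 0.87.

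**Figure D4:**
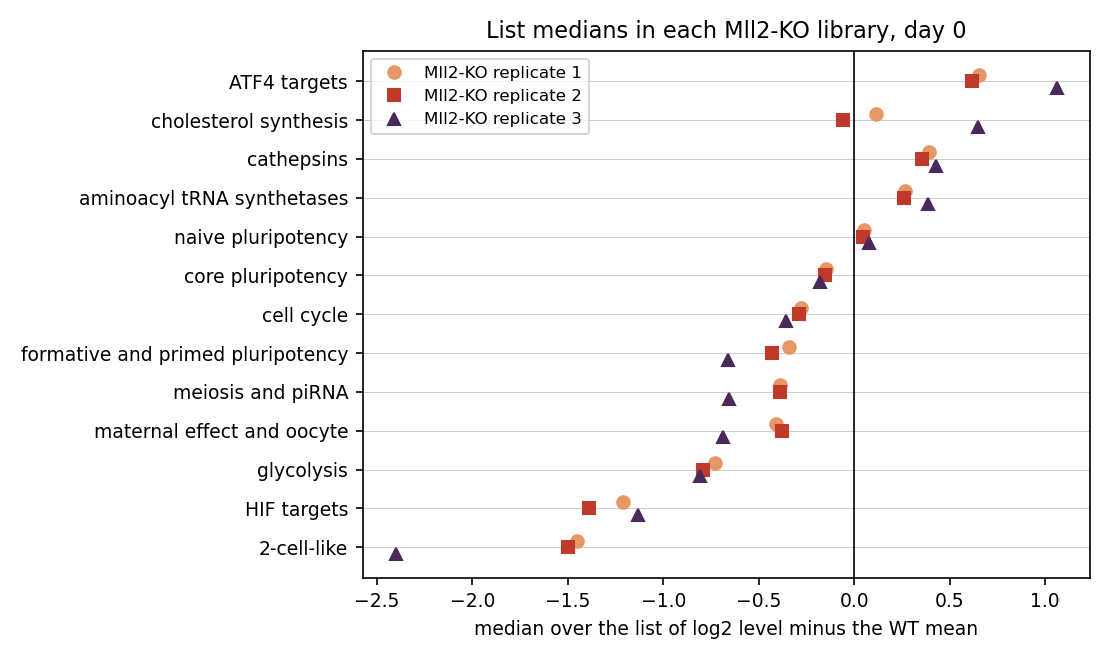
Median over each gene list of the log2 level in single Mll2-KO libraries minus the WT mean at day 0, for replicates 1 (orange circles), 2 (red squares) and 3 (dark triangles). Replicate 3 lies farther from 0 for 2-cell-like genes (-2.40) and ATF4 targets (1.06), apart from the others for cholesterol synthesis (0.65) and among them for HIF targets.

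Single genes showed the same library. Prph, a neuronal filament gene, had 187, 208 and 198 in WT and 453, 443 and 1092 in Mll2-KO (1.61 ± 0.21). Elovl2, a fatty acid elongase, had 312, 346 and 352 in WT and 124, 126 and 56.4 in Mll2-KO (-1.80 ± 0.24). In both, replicates 1 and 2 had already left the WT range and replicate 3 lay further out. Dll1, a Notch ligand, had 91.9, 103 and 126 in WT and 116, 151 and 290 in Mll2-KO (0.70 ± 0.23, adjusted p = 0.017), and its call was lost without replicate 3 (adjusted p = 0.18), as was that of Rab6b (adjusted p = 0.075 without it). Entpd4b, Tmem254b and Zfp433, also among the genes with the largest gaps, had 0 in some libraries and clear counts in others of the same group, for example 253, 144 and 0 for Entpd4b in WT. Cers1 also had 0 in 1 WT library (52.1, 45.6 and 0 in WT, 66.2, 78.2 and 104 in Mll2-KO), and the values of these genes are uncertain.

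The double-KO and Mll1-KO libraries at day 0 gave a reading of Mll2 loss, again with 4-OHT. Its log2 differences share no library with those of Mll2-KO against WT, but its calls share the spread over all 12 day 0 libraries. Of the 277 genes that rose by at least 2-fold 185 were also higher there and 1 was lower, with a median of 0.84, and of the 737 that fell 497 were lower and 15 higher, with a median of -1.27. The share called in each direction over all genes was 18.9% and 22%. Of the 20 2-cell-like genes 18 were lower there, with a median of -2.36, and of the 36 ATF4 targets 26 were higher and 1 lower, with a median of 0.45. The difference of effects was called for none of the 20 2-cell-like genes and for 17 of the 36 ATF4 targets, against 9.13% of all genes. After 4 days of differentiation, in libraries that the day 0 comparison does not use, 346 of the 737 fallen genes were lower in Mll2-KO and 40 higher, and 67 of the 277 risen genes were higher and 22 lower, beside 20.3% higher and 16.2% lower of the 15114 genes tested. These day 4 calls rest on a spread estimated over all 24 libraries, those of day 0 included. Of the HIF targets 17 were then higher and 4 lower, with a median of 0.29, so this list had the opposite sign to day 0, whereas 18 of the 20 2-cell-like genes were lower at day 4 (median -3.17). The change of the effect between days was called for 36.3% of all genes and for Lef1 (4.60, adjusted p = 1.6e-15), Bnip3 (3.29) and Ddit3 (-1.90).

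Genes of the X chromosome stood lower than those of other chromosomes. Of 492 tested, 72 (14.6%) were higher and 167 (33.9%) lower in Mll2-KO, 2 rose and 58 fell by at least 2-fold, and the median was -0.15. The medians of the other chromosomes lay between -0.076 (chromosome 13) and 0.049 (chromosome 17). In the double-KO against Mll1-KO the X median was -0.11, close to the -0.10 of chromosome 13. The remaining chromosomes lay there between -0.059 (chromosome 3) and 0.039 (chromosome 19). Among the falls Nxt2, an RNA export cofactor, had 560.5, 552 and 607 in WT and 268, 280 and 250 in Mll2-KO (-1.11 ± 0.09, adjusted p = 3.8e-09), Tex11, a meiosis gene, had 367, 371 and 354 in WT and 179, 180 and 127 in Mll2-KO (-1.18 ± 0.15), and Apln, a peptide hormone gene, had 32.2, 48.6 and 40.4 in WT and 0, 1.61 and 0 in Mll2-KO. With only genes reaching a normalized count of 50 the median was -0.08, so the shift rested in part on genes of low level.

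**Figure D5:**
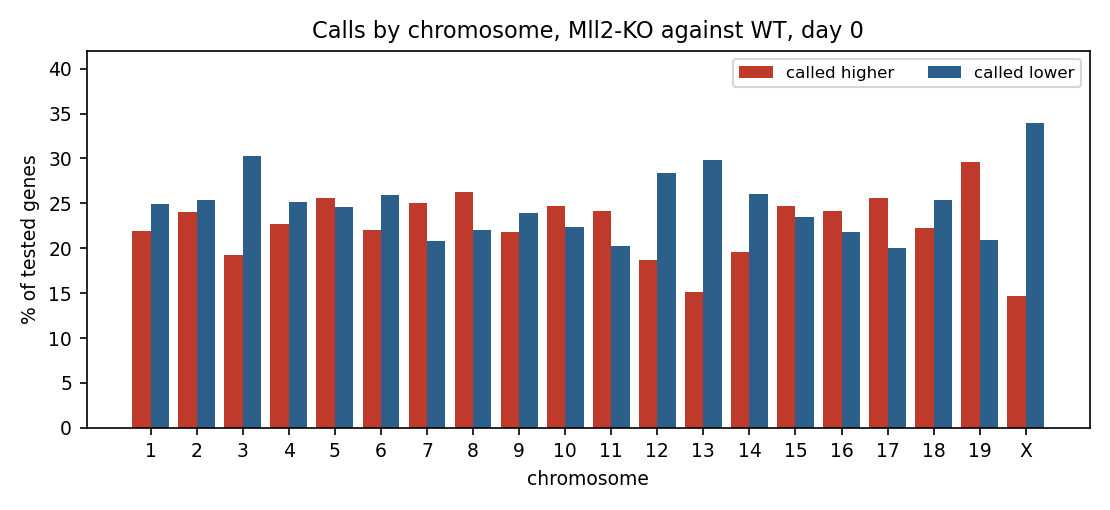
Percentage of the genes tested on each chromosome that were called higher (red) or lower (blue) in Mll2-KO against WT at day 0. Chromosome X has 14.6% higher and 33.9% lower, the widest gap among the chromosomes shown.

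Genes that fell lay beside each other more often than the overall share. For 83 of 714 genes that fell by at least 2-fold (11.6%) the next gene tested along the chromosome had also fallen by 2-fold, against 5.22% after any gene, and for those that rose by 2-fold it was 6.2% against 2.0%. Part of this came from clusters of near-identical copies, such as Zscan4a, Zscan4b, Zscan4c, Zscan4d and Zscan4f on chromosome 7 (-2.73 to -2.27) and the Fthl17 genes on the X chromosome (-3.50 to -1.51). Other runs joined unrelated genes: Rftn1, Dazl and Plcl2 on chromosome 17 (-1.59 to -1.01), Tfec, Tes and Met on chromosome 6 (-1.84 to -1.48), and Fam149a, Sorbs2 and Pdlim3 on chromosome 8 (-2.58 to -1.61). Met, the receptor for hepatocyte growth factor, had 152, 162.5 and 150 in WT and 56.4, 53.2 and 54.9 in Mll2-KO (-1.48 ± 0.14, adjusted p = 7.9e-08).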

How the data were processed

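PolyA RNA of 24 libraries was sequenced, and 1 table of normalized counts over 19953 genes was used. The build was mm10 and reads were aligned with STAR 2.7.10a, after Trim Galore 3.4 and FastQC, per the submitters' processing notes, which also list SAMtools 1.13, DESeq2 1.34.0 and the quantifier RSEM 1.3.1; the annotation and the division of reads among near-identical copies are not given in the sources used here. The values deposited by the authors are a signal, the count divided by a size factor of the library. Whole reads were recovered for 100% of values (tolerance 1e-06), and the 6 libraries compared held 19.0 to 22.8 M reads.

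Groups came from the labels. Genes with at least 10 in at least 3 of the 12 day 0 libraries were tested with limma 3.58.1 (R 4.3.3) on log2(value + 1), with an intensity trend and Benjamini-Hochberg adjustment over all genes; fold changes on this scale understate those of low genes. Day 4 and the change between days were fitted over all 24 libraries. The errors after ± are SEs unless SD is written. edgeR 4.0.16 and DESeq2 1.42.0 on the recovered reads, other pseudocounts (0.5 and 5), filters, scalings and fits, a replicate block and leaving out each of the 6 day 0 WT and Mll2-KO libraries were alternatives. The scripts were tested on simulated data. Gene names are the table's, positions come from GENCODE for GRCm38, and promoter windows from RefSeq for GRCm38.p6.

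The comparison, the gene lists and the rules were chosen with earlier results of these data known. Genes were named by rule: the 15 largest rises and falls without overlap whose higher group averaged at least 50, the 8 largest with a mean of at least 1000, up to 3 rises and 3 falls per list, the 8 highest and 8 lowest in Mll2-KO replicate 3 with a mean of at least 100, the 5 smallest adjusted p in each direction of the tests of difference, and Kmt2a, Kmt2b and Magohb. Other genes in the text were chosen after their values were seen, as were the cholesterol detail and the reading of left-out libraries.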

Additional observations from a re-analysis of the deposited data

Results flagged for a closer look

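The effect of Mll2 loss was tested for a difference between cells with and without MLL1 at day 0, and 1277 genes passed. A positive value means that the log2 effect was higher without MLL1; each value is followed by the effect with MLL1 (Mll2-KO against WT) and without it (double-KO against Mll1-KO). Values were positive for Bnip3 (2.55, from -2.97 to -0.42), Slc16a3 (2.71, from -3.00 to -0.29), Pgk1 (1.51, from -1.27 to 0.24), Tpi1 (1.66, from -1.66 to 0.00), Pfkl (1.51, from -1.12 to 0.38), Lef1 (2.96, from -4.19 to -1.23), Lefty1 (1.86, from -1.25 to 0.60), Lefty2 (2.16, from -2.21 to -0.05), L1td1 (0.54, from -0.93 to -0.39) and Mycn (0.70, from -1.24 to -0.54). They were negative for Apoe (-0.65, from 1.02 to 0.37), Dgkh (-0.89, from 1.17 to 0.28), Grik3 (-0.68, from 1.18 to 0.50), Trib3 (-0.78, from 1.80 to 1.02), Tbx3 (-0.74, from 1.39 to 0.64), Gata2 (-2.15, from 2.59 to 0.44) and Ddit3 (-0.57, from 2.32 to 1.75). The largest limma adjusted p among these genes was 0.036.

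The same effect was tested for a difference between day 4 and day 0, and 5491 genes passed. Each value is the day 4 effect minus the day 0 effect, followed by the effects at day 0 and day 4. Values were positive for Bnip3 (3.29, from -2.97 to 0.32), Tpi1 (2.09, from -1.66 to 0.43), Slc16a3 (3.22, from -3.00 to 0.22), Egln1 (2.50, from -2.23 to 0.27), Pfkl (1.83, from -1.12 to 0.71), Lef1 (4.60, from -4.19 to 0.41), Lefty2 (3.21, from -2.21 to 1.01), L1td1 (1.65, from -0.93 to 0.72) and Mycn (1.53, from -1.24 to 0.29). They were negative for Hexa (-1.40, from 1.19 to -0.21), Afap1 (-1.40, from 1.40 to -0.00), Ptprn (-2.62, from 1.12 to -1.50), Kif1a (-1.68, from 1.28 to -0.41), Hes1 (-1.18, from 1.02 to -0.16), Magohb (-2.24, from -2.21 to -4.45), Apoe (-0.98, from 1.02 to 0.04), Gata2 (-2.93, from 2.59 to -0.34), Ddit3 (-1.90, from 2.32 to 0.41) and Zscan4c (-1.35, from -2.37 to -3.72). The largest limma adjusted p among these genes was 0.00072. The tests at each level share libraries with the comparison of Mll2-KO and WT at day 0, from which several of these genes were chosen.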

How the results depend on the processing

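No named gene reversed its direction, but some balances of counts did. Genes called higher outnumbered those called lower under a minimum of 50 (3082 against 2982) and with edgeR (3400 against 3378). In the main fit it was 3191 against 3405. Without Mll2-KO replicate 3 the cholesterol list went from 10 higher and 0 lower to 7 and 8, and complex I from 6 and 8 to 5 and 4. With only genes reaching a minimum of 50, 174 genes rose and 340 fell by at least 2-fold and the X chromosome median was -0.079; under quantile scaling 482 rose by at least 2-fold. Replicate 3 stood 2-fold from the other Mll2-KO libraries in 411 genes without the filter on the mean (352 and 354 for replicates 1 and 2), and in 28 to 39 under the other settings. Calls for Mll2-KO against WT numbered 6617 with DESeq2, 6778 with edgeR and 6279 in the fit over the 6 libraries alone. Leaving out 1 of the 6 libraries compared gave 5509 to 6212 calls, 2717 to 3001 higher and 2787 to 3211 lower, and 212 to 294 rises and 622 to 758 falls of 2-fold. The same gave 5520 to 6308 calls for double-KO against Mll1-KO, 862 to 1462 for the difference with and without MLL1, 5437 to 5812 at day 4 and 4941 to 5403 for the difference between days. No Mll1-KO, double-KO or day 4 library was left out. The ranges for double-KO against Mll1-KO and for day 4 thus come from the shared fit. They cannot show how those calls depend on the libraries compared there. The replicate block gave 6770 calls, 1497 for the difference with and without MLL1, and 5518 between days. Same-numbered libraries deviated with correlations of -0.0093, 0.0534 and 0.0149, against -0.0613 to 0.0433 for differently numbered ones. These values cannot show whether same-numbered libraries were handled together, which the labels do not say. The call of Kmt2b was lost in 7 alternatives and that of Cyp51 in 6, and the 2-cell-like count fell to 9 under the minimum of 50, where fewer genes are tested. Depth limits genes of low level most.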

Other observations

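Several lists moved little or in both directions, with larger changes in single genes, beside 22.8% of all genes higher and 24.3% lower. Of 24 p53 targets 9 rose and 4 fell (5 rose without Mll2-KO replicate 3 or without WT replicate 2, and 2 fell without Mll2-KO replicate 1 or 2), of 28 Polycomb genes 8 rose and 4 fell, and of 30 genes of retrotransposon control 6 rose and 11 fell. Of 36 genes of complex I of the respiratory chain 6 rose and 8 fell; without WT replicate 1 3 rose and 4 fell, without WT replicate 3 5 fell and without Mll2-KO replicate 3 4 fell. Of 16 exon junction complex genes 4 rose and 6 fell, of 13 oestrogen response genes 1 and 5 (0 rose without WT replicate 1 or 3 or Mll2-KO replicate 2 or 3), of 13 interferon genes 1 and 2, and of 12 Hox genes 2 and 1. The oestrogen response genes that fell were Cxcl12 (-3.51), Igfbp4 (-1.96), Greb1 (-0.73), Fkbp4 (-0.26) and Rara (-0.21), and Nrip1 rose (0.24). Of 25 collagen and laminin genes 9 rose and 2 fell (4 without Mll2-KO replicate 1), and of 12 genes of the MHC class I list 4 rose and 1 fell (3 and 2 without Mll2-KO replicate 3). Genes of the mitochondrial genome were not analysed here.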
